A study of Homo sapiens with 15 samples.

Results

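ZJ-101 at 0.5 nM was the lowest of 4 doses given to spheroids of MDA-MB-231, an established human line of triple-negative breast cancer cells. The comparison takes the 3 libraries at 0.5 nM ZJ-101 and the 3 libraries of the vehicle, 0.1% DMSO, out of 15 libraries in all. It covers the 15233 genes, of 59608 listed, whose normalised count averaged at least 10 over the 15 libraries. Spheroids were formed for 72 h from cells of this single line in ultra-low attachment plates and then treated for 24 h. The pooled spheroids of 1 plate of 96 wells, harvested together with the cells that had come loose, made 1 biological replicate. P-values therefore describe the spread between plates of 1 line. The remaining 9 libraries, 3 each at 5, 50 and 500 nM, entered the fit as further groups. The comparison asks which transcripts of a formed spheroid, if any, differed at the lowest concentration.

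ZJ-101 was made as a shortened relative of superstolide A, which marine sponges produce, and the study relates it to the endomembrane system, the network of ER, Golgi, endosomes and lysosomes through which secreted and surface proteins pass. Cells answer a disturbance of this system through transcription factors that raise chaperones, stress factors and enzymes of lipid synthesis. Spheroids are held together by integrins, cadherins and matrix, all of which travel through the Golgi before they reach the surface.

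The 6 libraries held 8161124 to 9865817 reads in genes, within the range of 7773325 to 10065633 over all 15. A list of 12 markers of MDA-MB-231 and mesenchymal breast cancer cells, among them VIM and CD44, was summed over normalised counts. The sums were 57321, 57846 and 57943 at 0.5 nM and 57203, 55991 and 56577 in DMSO. Such a sum describes the list and does not establish which cells were present. Replicate 2 at 0.5 nM stood apart from the other 5 libraries. A list of 25 fibroblast genes summed to 7098 normalised counts there, against 2509 and 2783 in the other libraries at 0.5 nM and 2398 to 2664 in DMSO. On the first principal component of the 6 libraries (27.7% of the variance), the DMSO libraries lay at -12.1, -7.66 and -11.0. Replicates 1 and 3 at 0.5 nM lay at -4.21 and 9.20, and replicate 2 lay farthest out, at 25.7. Calls that were lost without replicate 2 at 0.5 nM are named with their values.

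Very few genes separated 0.5 nM ZJ-101 from DMSO. At an adjusted p below 0.05 (limma on log2 of the normalised count plus 1), 10 genes were higher at 0.5 nM, 0.0656% of those tested, and 1 was lower, 0.00656%. The higher genes were CEBPB, C3, FTH1, TXNIP, BEST1, PIGX, YBX3, CCZ1B, SAA2 and UBTD2, and the lower gene was BMP4. Their differences were small: 10 of the 11 changed by under 1.5-fold and 6 by under 1.2-fold, as fitted on the log2(value + 1) scale. For scale, against the same DMSO libraries 3.63% of genes were higher and 3.28% lower at 5 nM, 10.9% higher and 9.66% lower at 50 nM, and 16.2% in each direction at 500 nM. Tests on recovered reads called 9 higher and 1 lower with edgeR's quasi-likelihood test and 4 higher and 0 lower with the Wald test of DESeq2. Of the 11 genes, CEBPB, C3 and TXNIP remained called with DESeq2, and CEBPB, C3 and PIGX without robust moderation. Without replicate 2 at 0.5 nM, 4 genes were higher and 1 was lower, and without DMSO replicate 2 or replicate 1 at 0.5 nM, 2 were lower.

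**Figure D1:**
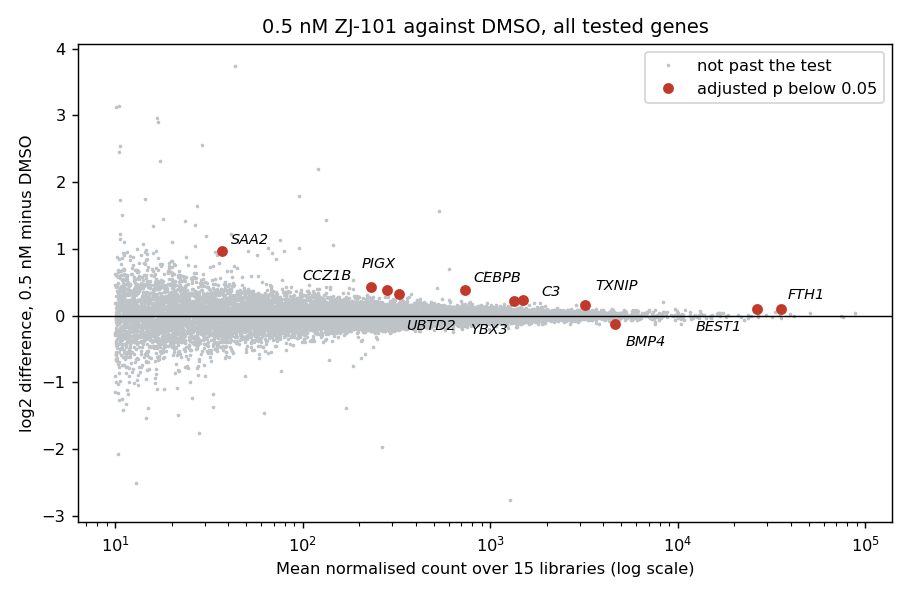
Each point is 1 of the 15233 tested genes, with its mean normalised count over 15 libraries on the x axis (log scale) and the log2 difference, 0.5 nM ZJ-101 minus DMSO, on the y axis. The 11 genes past the test are drawn in red and range from 0.96 for SAA2 down to -0.13 for BMP4, while the widest differences belong to genes that did not pass.

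The intervals show how much room the libraries left for larger changes. For 12373 genes (81.2%) the whole 95% interval of the difference lay within 1.5-fold of DMSO in either direction, and for 14527 (95.4%) within 2-fold. The precision varied with the count: 99.9% of the 1958 genes averaging 1000 or more were bounded within 1.5-fold, as were 99.1% of the 8081 genes from 100 to 1000, but only 46.3% of the 5194 genes from 10 to 100. The 61 genes whose fitted difference exceeded 1 on the log2 scale held 0 of the calls, and 7 of them had a mean of at least 100. RNH1, a ribonuclease inhibitor picked from these 7 after the values were seen, measured 98.3, 168 and 49.9 at 0.5 nM and 665, 96.6 and 789 in DMSO, with DMSO replicate 2 among the treated values. The groups did not overlap for 3 of the 7, CEBPB-AS1, CD99 and GTPBP6, and overlapped for the rest. CD99, also picked afterwards, measured 155, 176 and 1248 at 0.5 nM and 2393, 2350 and 1946 in DMSO (adjusted p = 0.528, limma). GTPBP6, picked likewise, measured 371, 212 and 235 at 0.5 nM and 34.8, 187 and 140 in DMSO (adjusted p = 0.524, limma). At an unadjusted p below 0.05, 1195 genes (7.84%) differed. The 3 libraries at 0.5 nM lay wholly above the 3 in DMSO for 962 genes (6.32%) and wholly below for 926 (6.08%). With 3 libraries a group, an exact permutation test of a single gene cannot give a p below 0.1.

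The strongest call was CEBPB, which encodes the basic leucine zipper transcription factor C/EBP-beta, an activator of acute phase and inflammatory genes. Its normalised counts were 935, 972 and 899 at 0.5 nM ZJ-101, against 646, 735 and 765 in DMSO. Every treated library exceeded every vehicle library. The difference was 0.39 on the log2 scale (SE 0.060, adjusted p = 3.29e-04, limma), or 1.31-fold with a 95% interval of 1.21 to 1.42. CEBPB passed the test under all 16 alternatives, with differences from 0.32 to 0.44 and an adjusted p of at most 0.0141 (limma, edgeR or DESeq2). Group means were 715 in DMSO and 935 at 0.5 nM, then 649.6 at 5 nM, 681 at 50 nM and 674 at the highest dose of 500 nM, and CEBPB was not called against DMSO at 5, 50 or 500 nM (adjusted p = 0.173, 0.455 and 0.318, limma). Between 0.5 and 5 nM the difference itself was 0.53 (adjusted p = 1.44e-09, limma).

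CEBPB lies at chr20:50190830-50192668 (hg38, plus strand), and 12.6% of its exon bases are shared with exons of CEBPB-AS1, the antisense RNA on the minus strand. CEBPB-AS1, singled out after its values were seen, had 212, 243 and 151 normalised counts at 0.5 nM and 69.7, 109 and 112 in DMSO. The groups did not overlap, and the fitted difference was 1.05 (SE 0.22), but the adjusted p was 0.203 in limma and it passed only with DESeq2, without the robust step, with no filter, and without DMSO replicate 1 or replicate 3 at 0.5 nM. Whether counting used strand is not given in the sources used here, so reads from the shared bases cannot be assigned to either gene. CEBPD, a related factor looked up for the same reason, measured 276, 293 and 267 at 0.5 nM and 221, 238 and 266 in DMSO, without overlap, with a difference of 0.21 (adjusted p = 0.529, limma).

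RefSeq lists promoter windows for 6 of the 11 genes (GRCh38.p14). The window of CEBPB is shown because this gene led the comparison. It covers the 250 bases before the most upstream of 2 listed starts, chr20:50190333-50190582, plus strand, and capitals mark GGGCGG, the core of the GC box bound by Sp1-type factors, on either strand.
CEBPB: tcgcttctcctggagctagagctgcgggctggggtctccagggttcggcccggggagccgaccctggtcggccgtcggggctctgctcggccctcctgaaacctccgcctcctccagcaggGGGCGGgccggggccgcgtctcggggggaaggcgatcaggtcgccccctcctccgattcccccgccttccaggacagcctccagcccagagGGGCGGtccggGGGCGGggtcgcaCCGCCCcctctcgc
The letters occurred 4 times in it, and 42.6% of all 35116 listed windows of this length hold them at least once. They occurred 5 times in the window of UBTD2, 4 in that of PIGX, 2 in BMP4, 1 in YBX3 and 0 in TXNIP. All motifs were searched on both strands. TTNNGNAA, the core of sites for the C/EBP family itself, was not found in the CEBPB window (33.2% of all windows hold it). Nor were GGGNN directly followed by TTNCC for NF-kappaB (5.07%), TGACG, the first letters of a CRE (21.2%), or CACGTG, the E-box (6.34%). Among the 6 windows TTNNGNAA was found once, as TTCTGCAA, at -194 to -187 from the start of YBX3. The CEBPB window ends before the GENCODE start of the gene at 50190830, so the bases next to that start were not searched. The lack of a motif holds for this window alone. A match is a description of letters, and binding was not measured.

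Complement component C3 was the second gene to hold under all 16 alternatives. C3, at chr19:6677704-6730562 on the minus strand, encodes the central protein of the complement cascade, an acute phase product that epithelial cells also secrete. Of its exon bases, 11.7% are annotated to a second gene of the same strand as well. It measured 1795, 1737 and 1733 normalised counts at 0.5 nM ZJ-101 and 1547, 1442 and 1495 in DMSO. The groups were well apart, with a gap between the lowest treated and the highest vehicle library that exceeded the range within either group. The difference was 0.23 (SE 0.042, adjusted p = 0.00175, limma), a 1.17-fold change (95% interval 1.11 to 1.24), and the alternatives gave 0.21 to 0.26. Group means were 1495 in DMSO and 1755 at 0.5 nM, then 2098 at 5 nM, 1244 at 50 nM and 864 at the highest dose of 500 nM. The mean at 0.5 nM lay between those of DMSO and 5 nM, and was lower than that at 5 nM (log2 difference -0.26, adjusted p = 3.18e-06, limma).

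SAA2, at chr11:18239223-18248668 on the minus strand, encodes serum amyloid A2, another acute phase protein. Its counts were low, 74.8, 52.4 and 40.1 at 0.5 nM and 34.8, 26.2 and 22.1 in DMSO. All treated libraries were above the vehicle libraries, although replicate 3 at 0.5 nM came close to DMSO replicate 1. SAA2 showed the largest difference of the 11, 0.96 (SE 0.22, 1.95-fold, 95% interval 1.44 to 2.63), and only just passed (adjusted p = 0.0487, limma). The call was lost without DMSO replicate 2 (adjusted p = 0.113) or 3 (0.244), without replicate 1 (0.346) or 2 (0.205) at 0.5 nM, and with DESeq2 (adjusted p = 0.295). Its near copy SAA1 has 39.5% of its 31-base transcript words in SAA2 as well, and 11.9% of the exon bases of SAA2 lie in exons of the readthrough gene SAA2-SAA4, so the authors' counting could have split reads between these genes. SAA1 measured 319, 386 and 404 at 0.5 nM and 345, 269 and 339 in DMSO, with overlapping groups (difference 0.22, adjusted p = 0.689, limma). The sum of both was 394, 438 and 444 at 0.5 nM and 380.1, 295 and 361 in DMSO, which did not overlap. LCN2, a further acute phase gene added after the values were seen, measured 82.0, 103 and 121 at 0.5 nM and 83.9, 82.2 and 89.4 in DMSO and overlapped.

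**Figure D2:**
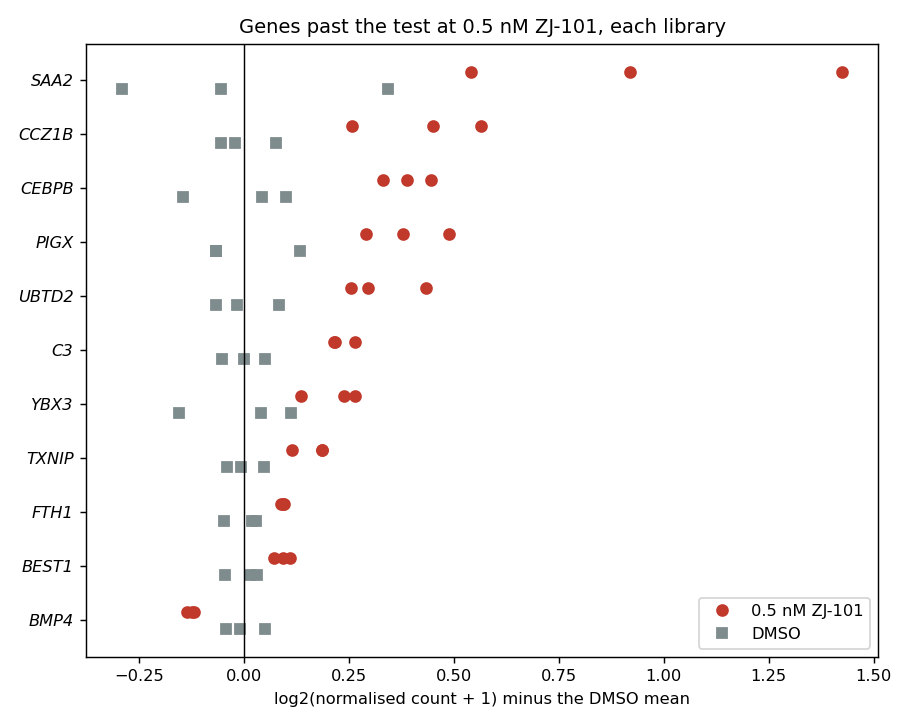
For each of the 11 genes past the test, the 3 libraries at 0.5 nM ZJ-101 (red circles, upper in each row) and the 3 DMSO libraries (grey squares, lower) are placed by log2(normalised count + 1) minus the DMSO mean of that gene. Red and grey do not overlap in any row, and the spread within groups is widest for SAA2, which had the fewest counts.

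TXNIP encodes the thioredoxin-interacting protein, an arrestin-like protein that restrains glucose uptake and binds thioredoxin, and whose transcription follows glucose through the factors MondoA and ChREBP. It lies at chr1:145992435-145996579 on the minus strand. TXNIP measured 3387, 3559 and 3558 at 0.5 nM and 3116, 3041 and 3232 in DMSO, with no overlap. The rise of 0.16 (SE 0.032, 1.12-fold, 95% interval 1.07 to 1.17) gave an adjusted p of 0.00752 in limma, 0.00627 in edgeR and 0.0157 in DESeq2. It was lost without replicate 2 at 0.5 nM (adjusted p = 0.161, difference within the range of 0.14 to 0.19 over all alternatives), without replicate 3 at 0.5 nM (0.0817) and without DMSO replicate 2 (0.0656). Group means were 3129.7 in DMSO and 3502 at 0.5 nM, then 2809.7 at 5 nM, 3159 at 50 nM and 3401 at the highest dose of 500 nM, and 0.5 nM exceeded 5 nM by 0.32 (adjusted p = 1.62e-13, limma).

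The 250 bases before the upstream start of TXNIP, chr1:145996580-145996829, minus strand, are shown for the paired element in them. Capitals mark 2 copies of CACGNG with 5 bases of any kind between them, the E-box-like pair that MondoA and ChREBP recognise, at -88 to -72 from the start.
TXNIP: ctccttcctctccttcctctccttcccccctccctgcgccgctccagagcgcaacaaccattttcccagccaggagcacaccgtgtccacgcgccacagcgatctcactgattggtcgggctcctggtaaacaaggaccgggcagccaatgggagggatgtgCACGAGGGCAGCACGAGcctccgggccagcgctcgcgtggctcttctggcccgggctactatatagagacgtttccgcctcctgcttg
Of the 35116 windows, 16 (0.0456%) hold such a pair on either strand, and a copy that reads CACGTG would also count as an E-box. None of the other 5 windows for called genes does. ARRDC4, a second gene known to respond to MondoA and chosen here after the values were seen, had no such match in its single listed window. ARRDC4 measured 64.0, 80.8 and 70.4 at 0.5 nM and 63.2, 77.7 and 56.2 in DMSO, overlapping, with a difference of 0.13 (SE 0.16). MLXIP, the gene of MondoA, measured 1108, 1046 and 1109 at 0.5 nM and 1061, 1088 and 1085 in DMSO, also overlapping.

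FTH1, the heavy chain of ferritin that stores iron, and BEST1, a chloride channel known from the retina, sit on opposite strands and share exons. FTH1 lies at chr11:61959718-61967634 (minus) and BEST1 at chr11:61950063-61965515 (plus), and the 1267 shared bases make up 63.2% of the exon bases of FTH1 and 14.6% of those of BEST1. FTH1 measured 37746, 37567 and 37676 at 0.5 nM, against 36050.2, 34161 and 35775 in DMSO. BEST1 measured 27569.6, 28291 and 27974 at 0.5 nM and 26783, 25418 and 26502 in DMSO, which was 0.730 to 0.753 of FTH1 in each of the 6 libraries. Both were without overlap. As strand was not given, the BEST1 value cannot be told apart from reads of FTH1, while the counts of called genes hold them as separate genes. In addition, 27.4% of the 31-base words of FTH1 transcripts occur in other genes, 16.6% in the pseudogene FTH1P10.

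The rise of FTH1 was 0.09 (SE 0.017, 1.07-fold, 95% interval 1.04 to 1.09, adjusted p = 0.00197, limma), among the smallest called. It was lost with edgeR (adjusted p = 0.12), with DESeq2 (0.0535) and without DMSO replicate 2 (0.0626), the lowest vehicle library. BEST1 was called with a rise of 0.09 (adjusted p = 0.00752, limma), lost with edgeR (adjusted p = 0.136) and DESeq2 (0.0924), without DMSO replicate 2 (0.113) and without replicate 2 (0.205) or 3 (0.0575) at 0.5 nM. FTL, the ferritin light chain, measured 33242, 33631 and 33351 at 0.5 nM and 33216, 31058 and 32713 in DMSO (difference 0.05, adjusted p = 0.463, limma). It was looked up after the values were seen, and its groups were only narrowly apart. Mean FTH1 was 35329 in DMSO and 37663 at 0.5 nM, then 39239 at 5 nM, 34241 at 50 nM and 30767 at the highest dose of 500 nM.

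YBX3 encodes a cold shock domain protein that binds RNA and DNA, at chr12:10699089-10723323 on the minus strand. It measured 1521, 1548 and 1417 at 0.5 nM and 1159, 1327 and 1393 in DMSO. DMSO replicate 1 was low, and DMSO replicate 3 came close to replicate 3 at 0.5 nM. The difference was 0.21 (SE 0.045, adjusted p = 0.0146, limma), and without DMSO replicate 1 it was no longer called (adjusted p = 0.552), nor without replicate 1 (0.118) or 2 (0.266) at 0.5 nM. It was also lost with DESeq2 (adjusted p = 0.152) and in the 6 libraries alone (0.0938). Compared with 5 nM, YBX3 was higher at 0.5 nM by 0.37 (adjusted p = 7.33e-10, limma).

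PIGX encodes a subunit of the ER mannosyltransferase that adds the first mannose to GPI anchors, a step of glycolipid assembly on the ER membrane. PIGX, at chr3:196639775-196736007 on the plus strand, measured 312, 336 and 293 at 0.5 nM and 229, 263 and 229 in DMSO. The groups were separate. The rise was 0.39 (SE 0.080, 1.31-fold, adjusted p = 0.012, limma; 0.0116, edgeR; 0.152, DESeq2). It was not called without DMSO replicate 1 (adjusted p = 0.152) or 3 (0.12), nor without replicate 1 (0.0534) or 2 (0.245) at 0.5 nM.

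CCZ1B encodes a subunit of the complex that activates the endosomal GTPase RAB7. CCZ1B lies at chr7:6794134-6826770 on the minus strand and has a near-identical copy, CCZ1, whose transcripts hold 61.8% of its 31-base words, so its counts are uncertain. CCZ1B measured 269, 235 and 290.5 at 0.5 nM and 207, 193 and 189 in DMSO. CCZ1, looked up after the values were seen, measured 95.6, 104 and 104 at 0.5 nM and 83.9, 104 and 98.4 in DMSO. CCZ1B was without overlap (difference 0.42, SE 0.090, adjusted p = 0.0146, limma), while CCZ1 overlapped (difference 0.09, adjusted p = 0.914). The sum of both copies was 364, 339 and 394 at 0.5 nM and 291, 297 and 287 in DMSO, which kept the groups apart. CCZ1B was lost without DMSO replicate 2 (adjusted p = 0.0626) or 3 (0.12) and without replicate 1 (0.0936) or 3 (0.235) at 0.5 nM, and with DESeq2 (0.152), but held without replicate 2 at 0.5 nM.

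UBTD2 encodes a ubiquitin-like domain protein, at chr5:172209646-172283764 on the minus strand. It measured 369.7, 380.2 and 419 at 0.5 nM and 306, 328 and 295 in DMSO, without overlap, a difference of 0.33 (SE 0.076, adjusted p = 0.0487, limma). It held only without DMSO replicate 2 among the 6 fits that left out a library; the others gave an adjusted p of 0.223 and 0.226 without DMSO replicates 1 and 3, and 0.0559, 0.184 and 0.366 without replicates 1, 2 and 3 at 0.5 nM. DESeq2 gave an adjusted p of 0.309.

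BMP4 was the single gene that fell. It encodes a secreted growth factor of the TGF-beta family that acts through BMP receptors and SMAD proteins, and lies at chr14:53949736-53958761 on the minus strand. BMP4 measured 3899.6, 3887 and 3856 at 0.5 nM, against 4382, 4210.0 and 4113 in DMSO. The treated libraries were tightly grouped below the lowest vehicle library. The difference was -0.13 (SE 0.029, 0.917 of the DMSO level, 95% interval 0.881 to 0.954, adjusted p = 0.0487, limma). BMP4 was the least stable call: it was lost with edgeR (0.0681) and DESeq2 (0.152), without DMSO replicate 1 (0.49) or 2 (0.0626), and without replicate 1 (0.118), 2 (0.205) or 3 (0.195) at 0.5 nM. Mean BMP4 was 4235 in DMSO and 3881 at 0.5 nM, then 4996 at 5 nM, 4842 at 50 nM and 5211 at the highest dose of 500 nM. The means of the higher doses were all above that of DMSO, and 0.5 nM was lower than 5 nM (log2 difference -0.36, adjusted p = 6.01e-19, limma). An antisense transcript overlaps 16.3% of its exon bases.

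**Figure D3:**
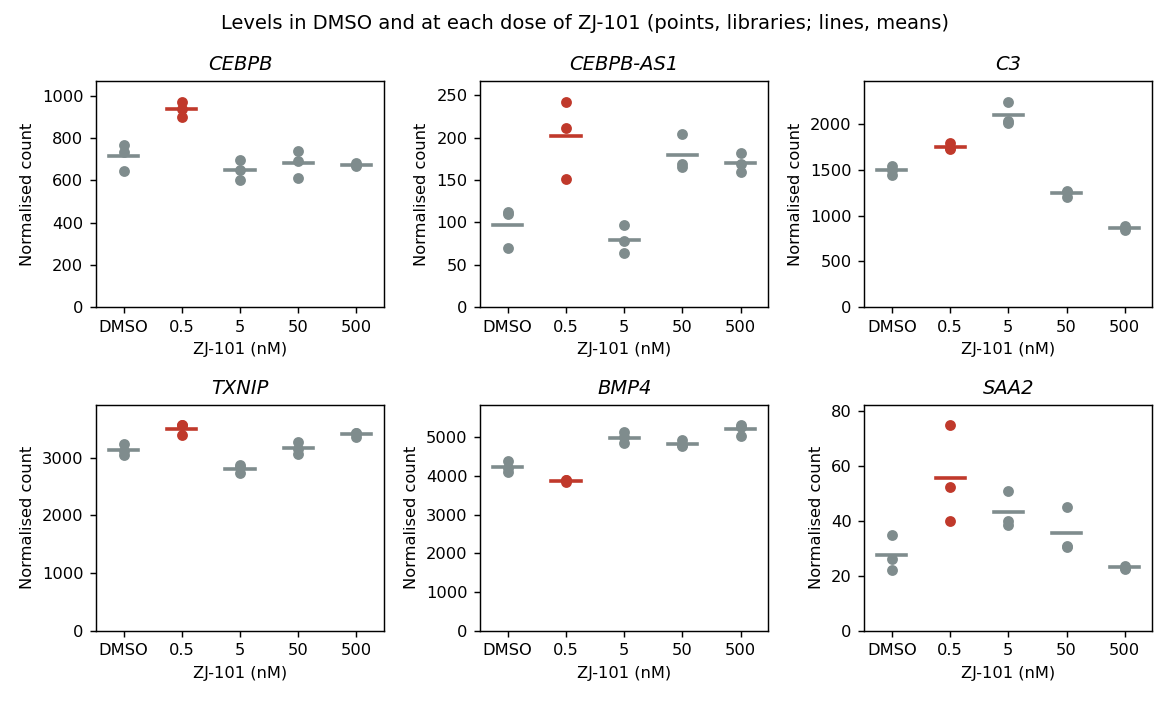
Normalised counts of CEBPB, its antisense RNA CEBPB-AS1, C3, TXNIP, BMP4 and SAA2 are plotted for each library (points) with group means (lines), in DMSO and at 0.5, 5, 50 and 500 nM ZJ-101, with 0.5 nM in red. CEBPB is highest at 0.5 nM, C3 peaks at 5 nM, and the mean of BMP4 is below that of DMSO at 0.5 nM and above it at the 3 higher doses.

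The genes next in order did not pass, and are given as values. Among those that leaned higher with no overlap were BTG1, an antiproliferative gene, with 1898, 1958 and 1869.8 at 0.5 nM and 1542, 1770.4 and 1745 in DMSO (difference 0.18, adjusted p = 0.0552, limma). GCLM, the regulatory subunit of glutathione synthesis, measured 630.3, 631 and 583 at 0.5 nM and 474, 560.0 and 522 in DMSO (difference 0.25, adjusted p = 0.0757, limma). Both passed under at least 1 alternative, and neither was called here.

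CSGALNACT1, a Golgi enzyme of chondroitin sulfate synthesis, measured 200.2, 204 and 204 at 0.5 nM and 169.9, 136 and 151 in DMSO (difference 0.42, adjusted p = 0.0617, limma). NUDT19, CD74, CAB39 and CENPU also leaned higher, with differences of 0.32, 0.10, 0.17 and 0.28. On the lower side, the NF-kappaB regulator IKBKG measured 921, 978 and 954 at 0.5 nM and 1099, 1120.0 and 1059 in DMSO (difference -0.20, adjusted p = 0.0528, limma). It shares 18.1% of its 31-base words with a pseudogene. The YAP-regulated gene AMOTL2 measured 435, 507 and 508 at 0.5 nM and 614, 541 and 556 in DMSO (difference -0.24, adjusted p = 0.0757, limma). DVL1, APBA3, ZSWIM8, AC027601.1 and AC020763.4 also leaned lower, from -0.37 to -0.13.

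A list of 12 genes that the study names for ZJ-101, which is not every gene it names, was near the vehicle level at 0.5 nM. None was called in either direction (0 of 12), and for all 12 the 95% interval lay within 1.5-fold. The study chose these genes from its own transcriptome data, these spheroids included, so they are not an independent list. The amino acid transporter chain SLC3A2 measured 1749, 1876 and 1897 at 0.5 nM and 1921, 1845 and 1736 in DMSO (difference 0.01, SE 0.079), while its means at 5, 50 and 500 nM were 2587, 8257 and 13567. The proton pump subunit ATP6V0A1 measured 499.5, 499 and 475 at 0.5 nM and 476, 495 and 490.2 in DMSO (difference 0.01, SE 0.056). Treated and vehicle libraries interleaved for both genes.

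The receptor GPRC5A (0.02, SE 0.042), the receptor tyrosine kinase EPHA2 (-0.04, SE 0.030), the chaperone HSP90AA1 (0.01, SE 0.023) and the ER co-chaperone DNAJB9 (-0.06, SE 0.067) also overlapped. So did the adhesion genes ITGA5 (-0.05, SE 0.038) and ICAM1 (0.03, SE 0.072), the collagen COL5A1 (-0.02, SE 0.034), and the Golgi glycosyltransferases B4GALT1 (0.02, SE 0.036) and GALNT1 (0.02, SE 0.051). VWA1, a matrix protein with a von Willebrand factor A domain, was the exception, at 1889.8, 1902 and 1847 at 0.5 nM and 1794, 1763 and 1793 in DMSO. It leaned higher without overlap but did not pass (difference 0.08, adjusted p = 0.737, limma), the side opposite to its lower levels at 5, 50 and 500 nM (1268, 643 and 469).

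**Figure D4:**
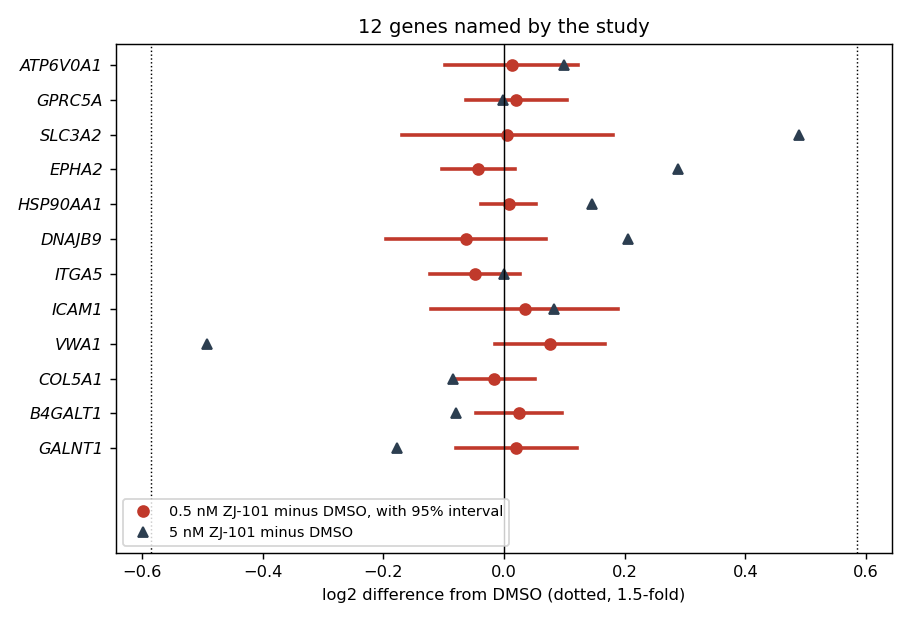
For 12 of the genes the study names, red points and bars give the log2 difference of 0.5 nM ZJ-101 from DMSO with its 95% interval, dark triangles give the difference of 5 nM from DMSO, and dotted lines mark 1.5-fold. Every red interval stays inside the dotted lines and crosses 0, while the triangles of SLC3A2, EPHA2 and VWA1 lie farthest from 0.

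The next dose, 5 nM, was the nearest in concentration. In the same fit, 514 genes (3.37%) were higher at 0.5 nM than at 5 nM and 562 (3.69%) were lower (adjusted p below 0.05, limma). Without replicate 1 at 0.5 nM these counts were 336 and 372, and without replicate 2 at 0.5 nM 373 were lower. Of these 12 genes, SLC3A2, EPHA2, HSP90AA1 and DNAJB9 were lower at 0.5 nM than at 5 nM (log2 differences -0.48, -0.33, -0.14 and -0.27). VWA1 and GALNT1 were higher (0.57 and 0.20). The comparisons of 0.5 nM with DMSO and with 5 nM share the libraries at 0.5 nM, so each set of values stands for itself.

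A set of genes was also picked on 500 nM against 5 nM, at an adjusted p below 0.05 (limma) and a log2 difference of at least 1. That difference uses neither the 0.5 nM nor the DMSO libraries. Both contrasts come from the same fit and share its estimate of the spread, so the calls are not independent of the picks. At the adjusted p alone, 14.7% of genes were higher and 15.4% lower at 500 nM. The 110 genes higher at 500 nM had a median difference of -0.02 at 0.5 nM against DMSO, with 0 called, and the 263 genes lower at 500 nM a median of 0.01, with 1 called higher, which was C3. Over all 15233 genes the median was 0.0016. Without DMSO replicate 1 the median of the 110 was -0.05, and without DMSO replicate 2 that of the 263 was -0.01. Of the 110 genes, 6 lay wholly above and 6 wholly below DMSO at 0.5 nM. Of the 263 genes, 24 lay above and 18 below, 9.13% and 6.84%, against 6.32% and 6.08% of all genes. Across genes, which are not independent replicates, the difference at 500 nM from 5 nM and that at 0.5 nM from DMSO had a Pearson r of 0.04 and a Spearman rho of 0.04.

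Single genes with wide differences between 500 and 5 nM overlapped between 0.5 nM and DMSO. The transcriptional regulators ID1 and ID3 had means of 3173 and 1789 at 5 nM and 295 and 169 at 500 nM. ID1 measured 2997, 2943 and 2799 at 0.5 nM and 3069.9, 2891 and 3159 in DMSO, and ID3 measured 1745, 1824 and 1789 at 0.5 nM and 1881, 1793 and 1821 in DMSO. AGR2, an ER protein disulfide isomerase whose mean at 500 nM was 1885, measured 400.3, 440.3 and 416 at 0.5 nM and 391, 412 and 425 in DMSO. Groups overlapped for each of these 3 genes.

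Gene groups were read through 37 lists, written from general knowledge and from the genes the study names. They hold 894 genes, of which 823 were tested. Of the 823, 3 were called, CEBPB, FTH1 and BMP4, a larger share than the 0.0722% of all tested genes. Intervals within 1.5-fold were found for 753. The median difference of 36 of the 37 lists lay within 0.1 of 0, against 0.0016 for all genes, the exception being the fibroblast list. In bulk RNA, fewer cells of a type and less RNA per cell cannot be told apart.

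Within the endomembrane system, none of the 41 tested genes of vesicle coats and the Golgi was called (median 0.02, with 4 wholly above and 2 wholly below DMSO, beside 6.32% and 6.08% of all genes), nor any of 17 proton pump genes (median -0.01), 33 lysosomal genes (median 0.01) or 21 enzymes of O-glycan synthesis (median 0.01). SEC16A, which organises ER exit sites, measured 1628, 1677 and 1586 at 0.5 nM and 1553, 1540.0 and 1523 in DMSO, with a difference of 0.08. The golgin GOLGB1 measured 1054, 1014 and 1036 at 0.5 nM and 965, 970.1 and 947 in DMSO (0.11). ARFGAP1, which drives COPI uncoating, measured 1777, 1722 and 1776 at 0.5 nM and 1921, 1844 and 1904 in DMSO (-0.10). The groups were apart for each of these genes, and none passed the test. All 41 vesicle coat and Golgi genes and all 17 proton pump genes had intervals within 1.5-fold.

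Stress response lists held 2 calls, both higher, beside 0.0656% of all tested genes called higher. Of 24 tested ER chaperones and unfolded protein response genes, 0 were called (median 0.03), with 6 wholly above DMSO and 2 wholly below, beside 6.32% and 6.08% of all genes. HSP90B1, the ER member of the HSP90 family, measured 8071, 8090.1 and 8071 at 0.5 nM and 7371, 7766 and 7682 in DMSO (difference 0.09, adjusted p = 0.224, limma). Of 27 targets of ATF4, the factor of the integrated stress response, 1 was called higher, CEBPB (median 0.07). Among these 27, 5 lay wholly above DMSO and 1 wholly below, beside 6.32% and 6.08% of all genes. DDIT3, the pro-apoptotic factor CHOP, measured 142, 132 and 116 at 0.5 nM and 91.5, 103 and 106 in DMSO (difference 0.37, adjusted p = 0.356, limma), without overlap. Exons of MARS1 on the opposite strand share 27.2% of its exon bases. The 17 heat shock genes had a median of -0.01 and 0 calls, and DNAJB1, an HSP40 co-chaperone, measured 1994, 2134 and 2166 at 0.5 nM and 2253, 2241 and 2185 in DMSO, lying below without overlap (difference -0.09, adjusted p = 0.518, limma). Of 26 NRF2 targets, the antioxidant response, 1 was called, FTH1, with 7 wholly above and 5 wholly below DMSO, beside 6.32% and 6.08% of all genes (median 0.01).

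Lipid synthesis gave 0 calls in 26 sterol and 18 fatty acid genes (medians 0.04 and 0.02). INSIG1, which retains SREBP in the ER and is itself an SREBP target, measured 1234, 1219 and 1245 at 0.5 nM and 1035, 1071 and 1121 in DMSO (difference 0.20, adjusted p = 0.254, limma), and passed only in the fit to the 6 libraries alone. Its groups did not overlap, and of the 26 sterol genes 3 lay wholly above DMSO and 0 wholly below, beside 6.32% and 6.08% of all genes. At 50 and 500 nM mean INSIG1 was 359 and 238.

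Adhesion and matrix genes, whose products hold spheroids together, showed 0 calls in 16 integrins (median 0.03), 33 genes of cell to cell adhesion (median -0.01) and 34 matrix genes (median 0.02), of which 6 lay wholly above DMSO and 5 below, beside 6.32% and 6.08% of all genes. ITGB1, the common integrin beta chain, measured 10274, 10522 and 10637 at 0.5 nM and 10073, 10213 and 10179 in DMSO (difference 0.05, adjusted p = 0.644, limma), and the hyaluronan receptor CD44 had 6579, 6292 and 6644 at 0.5 nM and 6145, 6157 and 6152 in DMSO (difference 0.08, adjusted p = 0.355, limma). COL7A1, the collagen of anchoring fibrils, measured 1535, 1499 and 1338 at 0.5 nM and 1680.3, 1609 and 1615 in DMSO (difference -0.17, adjusted p = 0.108, limma). Among 24 matrix proteases and their inhibitors, 4 lay wholly above DMSO and 0 below (beside 6.32% and 6.08% of all genes), including the collagenase MMP1 with 228, 215 and 244 at 0.5 nM and 200.4, 169 and 189.8 in DMSO (difference 0.30, adjusted p = 0.352, limma).

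Proliferation genes were not called either. Of 34 genes of the G1/S transition and DNA replication, 9 lay wholly above DMSO and 0 below, beside 6.32% and 6.08% of all genes, with a median of 0.05 and 0 calls. They were E2F1, CCNE1, MCM2, MCM4, GINS2, ORC1, TYMS, POLA1 and SLBP. MCM4, a subunit of the replicative helicase, measured 955, 937 and 1022 at 0.5 nM and 868, 895 and 908 in DMSO (difference 0.12, adjusted p = 0.421, limma), and the histone mRNA binding protein SLBP had 692, 682 and 706 at 0.5 nM and 559.7, 641 and 648 in DMSO (difference 0.17, adjusted p = 0.337, limma). Genes of a list are not independent and share these 6 libraries, so the count is a description. Against 5 nM, 12 of the 34 were lower at 0.5 nM and 0 higher, beside 3.69% and 3.37% of all genes.

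Of 32 mitosis genes, 0 lay wholly above DMSO and 1 wholly below (beside 6.32% and 6.08% of all genes), the kinesin KIF20A, with 488, 484 and 495 at 0.5 nM and 571, 543 and 601 in DMSO (difference -0.22, adjusted p = 0.108, limma). Of these 32, 14 were lower at 0.5 nM than at 5 nM and 0 higher, beside 3.69% and 3.37% of all genes. The 13 mitochondrially encoded genes had a median of -0.01 against DMSO with none without overlap, but 12 of 13 were higher at 0.5 nM than at 5 nM and 0 lower, beside 3.37% and 3.69% of all genes (median 0.41). MT-CYB measured 12782, 12007 and 11595 at 0.5 nM and 12062, 13181 and 12576 in DMSO, with a mean of 9842 at 5 nM. Of 24 YAP targets, 8 were lower and 2 higher at 0.5 nM than at 5 nM, and of 34 actin and focal adhesion genes 12 were lower and 0 higher, beside 3.69% and 3.37% of all genes. The YAP target CCN1 had 1175, 1345 and 1188 at 0.5 nM, 1339, 1396 and 1314 in DMSO and a mean of 1997 at 5 nM.

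Signalling lists gave 0 calls in 30 ERK and immediate early genes (median -0.02), 27 NF-kappaB targets (median -0.02), 34 interferon-stimulated genes (median 0.02), 35 hypoxia and glycolysis genes (median -0.02) and 28 apoptosis genes (median 0.00). SOD2, an NF-kappaB target of the mitochondrion, measured 2004, 1953 and 2089 at 0.5 nM and 1850.2, 1874 and 1902 in DMSO (difference 0.10, adjusted p = 0.455, limma). NDRG1, induced by hypoxia, measured 4742, 4861 and 4772 at 0.5 nM and 5185, 4879 and 5010.2 in DMSO (difference -0.07, adjusted p = 0.521, limma). Among 26 BMP and TGF-beta genes, BMP4 was the single call, beside 0.0722% of all tested genes.

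The fibroblast list had the widest median difference, and its values were high in 1 library. Of its 25 genes, 21 had their highest value of the 6 libraries in replicate 2 at 0.5 nM. At 0 were 8, 2 and 6 of the 25 in replicates 1, 2 and 3 at 0.5 nM, and 9 in each DMSO library, among them DCN, THY1, POSTN and SFRP2 in all 3 DMSO libraries. COL1A1, the main collagen of fibroblasts, measured 112, 2387 and 268 at 0.5 nM and 138, 139 and 139.6 in DMSO. COL3A1 measured 2.70, 208 and 18.6 at 0.5 nM and 1.09, 0 and 2.01 in DMSO, and the proteoglycan DCN 0.902, 51.3 and 5.87 at 0.5 nM and 0 in each DMSO library. In each case replicate 2 was far above the other libraries, and replicate 3 was the next highest. The median difference of the 16 tested members was 0.59, with 0 called. The summed list was also high in replicate 2 at 5 nM (5485) and in replicate 1 at 500 nM (5832).

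In this library 25 genes exceeded the highest of the other 5 libraries by at least 2-fold, against 3 to 9 in each of those. They included genes outside the list, such as SPARC, with 13.5, 552 and 43.0 at 0.5 nM and 16.3, 15.4 and 12.1 in DMSO, and ITGA11, BGN, ACTA2 and TAGLN, known from fibroblasts and myofibroblasts. With the 3 libraries rich in these transcripts left out together, C3, CEBPB, CCZ1B, IGFBP3 and FTH1 were higher at 0.5 nM (adjusted p below 0.05, limma), so that 4 of the 11 genes remained called. The direction of the other 7 could not change in that fit, since their treated libraries all lay on 1 side of every DMSO library. Log2 differences were 0.08 for BEST1, 0.15 for TXNIP, 0.33 for PIGX, 0.19 for YBX3, 0.98 for SAA2, 0.35 for UBTD2 and -0.13 for BMP4. With all libraries these were 0.09, 0.16, 0.39, 0.21, 0.96, 0.33 and -0.13. The fit without them rests on fewer libraries.

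**Figure D5:**
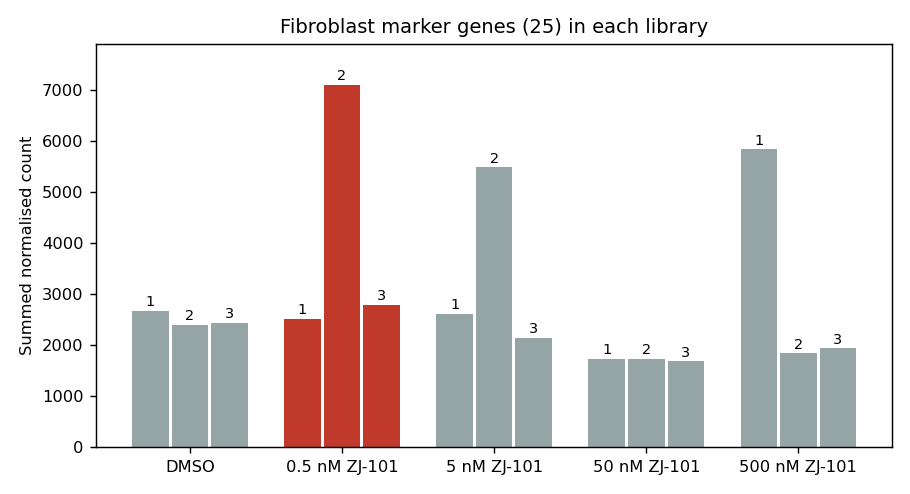
Bars give the summed normalised count of the 25 fibroblast marker genes in each of the 15 libraries, by group, with the replicate number above each bar and 0.5 nM ZJ-101 in red. Replicate 2 at 0.5 nM is the highest at 7098, followed by replicate 1 at 500 nM and replicate 2 at 5 nM, and the DMSO libraries lie between 2398 and 2664.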

How the data were processed

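RNA from pooled spheroids was sequenced as poly(A) libraries. According to the methods of the study, HISAT2 placed the paired-end reads on hg38, htseq-count assigned them to genes, and DESeq2 scaled and compared the libraries. Transcripts were annotated with a GENCODE release. Its number, the tool versions and the strand setting are not given in the sources used here. The deposited signal values are gene counts that the authors scaled with DESeq2 size factors, for 15 libraries in 5 groups of 3. The deposited tables of each dose against DMSO, which hold a mean, log2 fold change, its error, a Wald statistic, p and adjusted p, were not used.

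Genes with a mean of at least 10 were tested with limma 3.58.1 (R 4.3.3), with trend and robust moderation, on log2 of the value plus a pseudocount of 1, in all 15 libraries and without covariates. P-values were two-sided and adjusted by the Benjamini-Hochberg method over the 15233 genes, and fold changes on this scale understate the change of low genes. In each library 100% of values were whole multiples of 1 read within 0.001, so reads were recovered and tested with edgeR 4.0.16, which called 10 genes, and DESeq2 1.42.0, which called 4. The depth was 7773325 to 10065633 reads in genes, and the biological coefficient of variation of the recovered reads was 3.72%. Alternatives were the filter, the scaling, the pseudocount, the samples in the fit, the moderation, the test, a replicate block and leaving out libraries.

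Genes named with values were all called genes, the 8 higher and 8 lower uncalled genes of smallest p without overlap whose higher group averaged 100 or more, 12 genes the study names, up to 3 genes of smallest p per list, 6 genes at each end of the difference between 500 and 5 nM, and up to 10 fibroblast genes. Some genes that the rule names are not reported here. Genes outside this rule are said to have been chosen after their values were seen. The comparison, the lists and the rule were chosen with earlier results of these data known. Positions are those of GENCODE 44 on hg38, in which 13233 of the 15233 symbols (86.9%) were found. Promoter windows are those of RefSeq on GRCh38.p14. Python 3.11.15, numpy 2.4.6, pandas 2.3.3 and matplotlib 3.10.9 were used.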

Additional observations from a re-analysis of the deposited data

How the results depend on the processing

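The counts of genes higher and lower at 0.5 nM ZJ-101 than in DMSO, 10 and 1, were 21 and 11 with no filter on low values (31740 genes tested), 17 and 2 with the 6 libraries alone, and 5 higher without robust moderation. DESeq2 gave 4 and 0 (606 genes at an unadjusted p below 0.05), and leaving out the 3 libraries richest in fibroblast transcripts gave 5 higher. There were 3 lower with a mean of at least 50, 2 lower with a pseudocount of 5, and 11 higher and 3 lower with the replicate block. TMM scaling kept 10 and 1. Leaving out 1 library gave 4 to 11 higher and 1 to 2 lower. Deviations of 0.5 nM and DMSO libraries with the same replicate number correlated at -0.003, -0.04 and -0.03, so no shared effect of the number was visible. Whether such libraries were handled together is not given in the sources used here.

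Against 5 nM, leaving out 1 library gave 336 to 546 genes higher and 372 to 609 lower, and leaving out the 3 fibroblast-rich libraries gave 340 higher. Leaving out 1 library gave 11766 to 11894 genes with an interval within 1.5-fold. The medians of the genes picked on 500 against 5 nM were -0.046 to -0.00019 for those higher at 500 nM and -0.0092 to 0.014 for those lower, and -0.011 for the second set without the 3 fibroblast-rich libraries. The cause of these shifts was not tested. Over the 11 called and 16 next genes, 431 values under alternatives held no reversed direction, 60 that were no longer called and 26 that were newly called. All these genes had groups that did not overlap, so leaving out a library could not reverse a direction. The lack of reversals is therefore not a sign of stability. SAA2 has no value with a mean of at least 50, which it does not reach. Changes under 1.5-fold in genes with a mean under 100 were mostly not resolvable at this depth.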

Other observations

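Beside the called genes, a few libraries held single genes far from the rest of their group. CUTA, a gene chosen after its values were seen, measured 62.2, 366 and 72.4 normalised counts at 0.5 nM ZJ-101 and 760.1, 58.7 and 668 in DMSO, so that 1 library in each group lay near the values of the other group. The fitted difference was -1.39 on the log2 scale and did not pass (adjusted p = 0.79, limma). CEBPB-AS1 counts stood at 0.227, 0.249 and 0.168 of those of CEBPB at 0.5 nM and at 0.108, 0.149 and 0.147 in DMSO, so the ratio of the pair, both counted per gene, was higher in every library at 0.5 nM. Ribosomal protein genes had a median difference of 0.01 over 40 tested members, with 5 wholly above and 0 wholly below DMSO, beside 6.32% and 6.08% of all tested genes. The 6 nuclear long noncoding RNAs tested and the 9 tested targets of LXR, a sterol-sensing nuclear receptor, were without calls and without a member whose groups did not overlap. Among the LXR targets, 3 were higher at 0.5 nM than at 5 nM and 0 were lower, beside 3.37% and 3.69% of all tested genes.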
